A study of Mus musculus with 12 samples.

Results

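Btg/Tob and Zfp36 proteins are 2 families that shorten the life of messenger RNA. The members described here were taken by gene symbol: Btg1, Btg2, Btg3, Btg4, Tob1 and Tob2 of the first family, and Zfp36, Zfp36l1 and Zfp36l2 of the second. They are 9 of the 20718 genes in the table, and all 9 passed the filter on low counts. These families were chosen by the measured calls of Btg2 and Zfp36 in 2 of the comparisons, F0_5251KD vs F0_3NC and F0_3NC vs F0_5NC. Values of the members in those comparisons are therefore descriptions and carry no p-value.

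Testis mRNA of ICR mice (written "IRC mouse" in the labels) was sequenced in 4 groups of 3 libraries. Lentivirus was injected into the testes of males aged 4 weeks. The males were mated at 9 weeks for 4 days and were sampled 4 days later. The F0_5251KD virus carried a mixture of short hairpin RNAs against lncRNA5251, a long non-coding RNA, in the vector LV3, and the F0_3NC virus carried a scrambled hairpin in LV3. The F0_5251OV virus carried full-length lncRNA5251 in the vector LV5, and the F0_5NC virus was LV5 alone. All 4 groups therefore received a virus, and F0_3NC and F0_5NC differ in vector, insert and any batch that follows them, which cannot be told apart. The virus reached a whole organ and not a chosen cell type, and the level of lncRNA5251 itself was not analysed here.

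The poly(A) tail at the end of an mRNA protects it, and its removal, deadenylation, usually starts decay. Btg and Tob proteins bind the catalytic Caf1 subunits (Cnot7 and Cnot8) of the CCR4-NOT complex, the main cytoplasmic deadenylase, and Tob proteins also bind poly(A)-binding protein. Zfp36 proteins carry paired CCCH zinc fingers that recognise AU-rich elements in 3′ untranslated regions (UTRs) and bring CCR4-NOT to those mRNAs. Several members, Btg2 and Zfp36 above all, are known as early response genes that are transcribed soon after a stimulus and whose own mRNAs are short-lived.

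Among the 9 genes, Btg2 and Zfp36 separated the groups. Both were highest in F0_5251KD, lower in F0_3NC, and lowest in F0_5NC and F0_5251OV, whose ranges overlapped. Zfp36l1 was higher in F0_5251KD than in every library of the other 3 groups. The remaining 6 genes varied little: the highest library was between 1.18 (Btg1) and 1.70 (Btg3) times the lowest in RPKM (reads scaled to gene length and library depth). This ratio was 1.94 for Zfp36l1, not far above Btg3, against 21.5 for Btg2 and 7.15 for Zfp36.

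The promoters of the 3 genes that were highest in F0_5251KD are shown with matches to short motifs known from early response genes. Each line gives the 250 bases before the RefSeq transcription start (GRCm38.p6), 5′ to 3′ on the strand of the gene, with matches to the searched motifs in capitals. The motifs were the CArG box bound by serum response factor, the cAMP response element TGACGTCA and the AP-1 type pattern TGANTCA, with any base at N. The Egr site GCGNGGGCG and the TATA box TATAAA were searched as well. Both strands were searched, over these bases and a short stretch after the start that is not shown. No match overlapped another.
Btg2, chr1:134079156-134079405, minus strand: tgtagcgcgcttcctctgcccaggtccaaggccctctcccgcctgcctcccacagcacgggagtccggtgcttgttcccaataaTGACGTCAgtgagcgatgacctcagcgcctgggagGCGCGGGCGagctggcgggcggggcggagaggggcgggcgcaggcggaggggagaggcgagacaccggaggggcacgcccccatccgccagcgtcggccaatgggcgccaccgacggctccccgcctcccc
Zfp36, chr7:28379229-28379478, minus strand: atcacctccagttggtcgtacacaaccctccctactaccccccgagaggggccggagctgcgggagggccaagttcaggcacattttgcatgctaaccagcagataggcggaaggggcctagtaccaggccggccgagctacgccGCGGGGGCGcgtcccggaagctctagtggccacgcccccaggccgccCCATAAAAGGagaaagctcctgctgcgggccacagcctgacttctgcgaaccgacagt
Zfp36l1, chr12:80113014-80113263, minus strand: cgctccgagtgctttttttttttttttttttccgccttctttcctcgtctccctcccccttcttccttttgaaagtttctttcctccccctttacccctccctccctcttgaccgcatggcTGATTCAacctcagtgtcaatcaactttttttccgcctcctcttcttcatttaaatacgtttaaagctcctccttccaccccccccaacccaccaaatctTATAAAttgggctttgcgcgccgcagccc

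The Btg2 window held TGACGTCA at -166 to -159 from the start and an Egr site at -131 to -123. The Zfp36 window held a CArG box at -58 to -49 and an Egr site at -105 to -97. The Zfp36l1 window held TGATTCA, a match to the looser pattern TGANTCA, at -129 to -123 and TATAAA at -29 to -24. Of the other members, Btg1 and Tob1 held TATAAA alone, and Btg3 (in 2 windows), Btg4 and Tob2 held none of the 5 motifs. Zfp36l2 had no window in the promoter set used, so its promoter was not searched. For comparison, all RefSeq promoter windows were searched over the same stretch before and after the start. Of these 32851 windows, 1.63% held the CArG box, 1.79% TGACGTCA, 5.55% GCGNGGGCG, 7.81% TGANTCA and 13.6% TATAAA. These matches describe letters in a window and were not tested against expression.

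The AU-rich nonamer TTATTTATT, the preferred binding sequence of the Zfp36 zinc fingers, was found once in the longest annotated 3′ UTR of each of the 3 Zfp36 family genes and in none of the 6 Btg/Tob genes. It was present in 7.6% of 20966 annotated 3′ UTRs (1 per gene, GENCODE on GRCm38). The sites are shown with the nonamer in capitals, 5′ to 3′ on the strand of the gene, because the proteins that read this sequence are encoded by mRNAs that carry it.
Zfp36, chr7:28376951-28376979, minus strand: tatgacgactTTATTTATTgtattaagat
Zfp36l1, chr12:80108167-80108195, minus strand: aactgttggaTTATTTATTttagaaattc
Zfp36l2, chr17:84184914-84184942, minus strand: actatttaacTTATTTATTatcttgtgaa

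The shorter core ATTTA was present in the 3′ UTR of all 9 genes, as it was in 65% of annotated UTRs. It was densest in Btg3 (9.11 per kilobase) and Btg4 (7.68 per kilobase), whose UTRs are short (439 and 521 bases). Btg2 held 5 copies in 2199 bases (2.27 per kilobase), near the 1.93 per kilobase over all UTRs. Tob2 was below that density, with 1.63 per kilobase.

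The libraries held 15431383 to 16355720 estimated counts each, a narrow range. A chi-square per gene between replicate libraries was 3.73 to 20.2, so no library was a copy of another in its own group. Libraries of different groups were not compared in this way. F0_3NC replicate 2 differed from its 2 partners by 17.7 and 20.2. Germ cell markers were abundant, with 12480 to 17260 CPM (counts scaled to library size) summed over 5 elongated spermatid markers. In contrast, 4 of 5 neutrophil and 4 of 5 T and NK cell markers were under 1 CPM in every library. The 3 epididymis markers in the table summed to 9.83 to 93.9 CPM in F0_5NC, 0.388 to 63.9 in F0_5251OV, 0.322 to 6.01 in F0_3NC and 0.0648 to 0.191 in F0_5251KD. Their part in the results below was not tested. Nothing in the labels ties a library to its own animal, so the errors and p-values given here cover the variation among libraries, which may be technical.

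Levels between genes were compared per length, as RPKM over the 12 libraries. Btg1, an antiproliferative protein that is abundant in resting cells, was the highest member at a mean of 38.98 RPKM, within the top 13.4% of the genes in the table. Tob1 followed at 31.82 RPKM, Btg3 at 18.82, Btg4 at 13.5, Zfp36l1 at 10.79, Btg2 at 7.76, Zfp36 at 7.31, Zfp36l2 at 4.01 and Tob2 at 3.93. The ranges of neighbours in this order overlapped, except that the lowest Tob1 library (27.42 RPKM) lay above the highest Btg3 library (23.66 RPKM). The mean of Btg2 describes no group well, since its libraries ran from 1.13 to 24.31 RPKM.

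**Figure D1:**
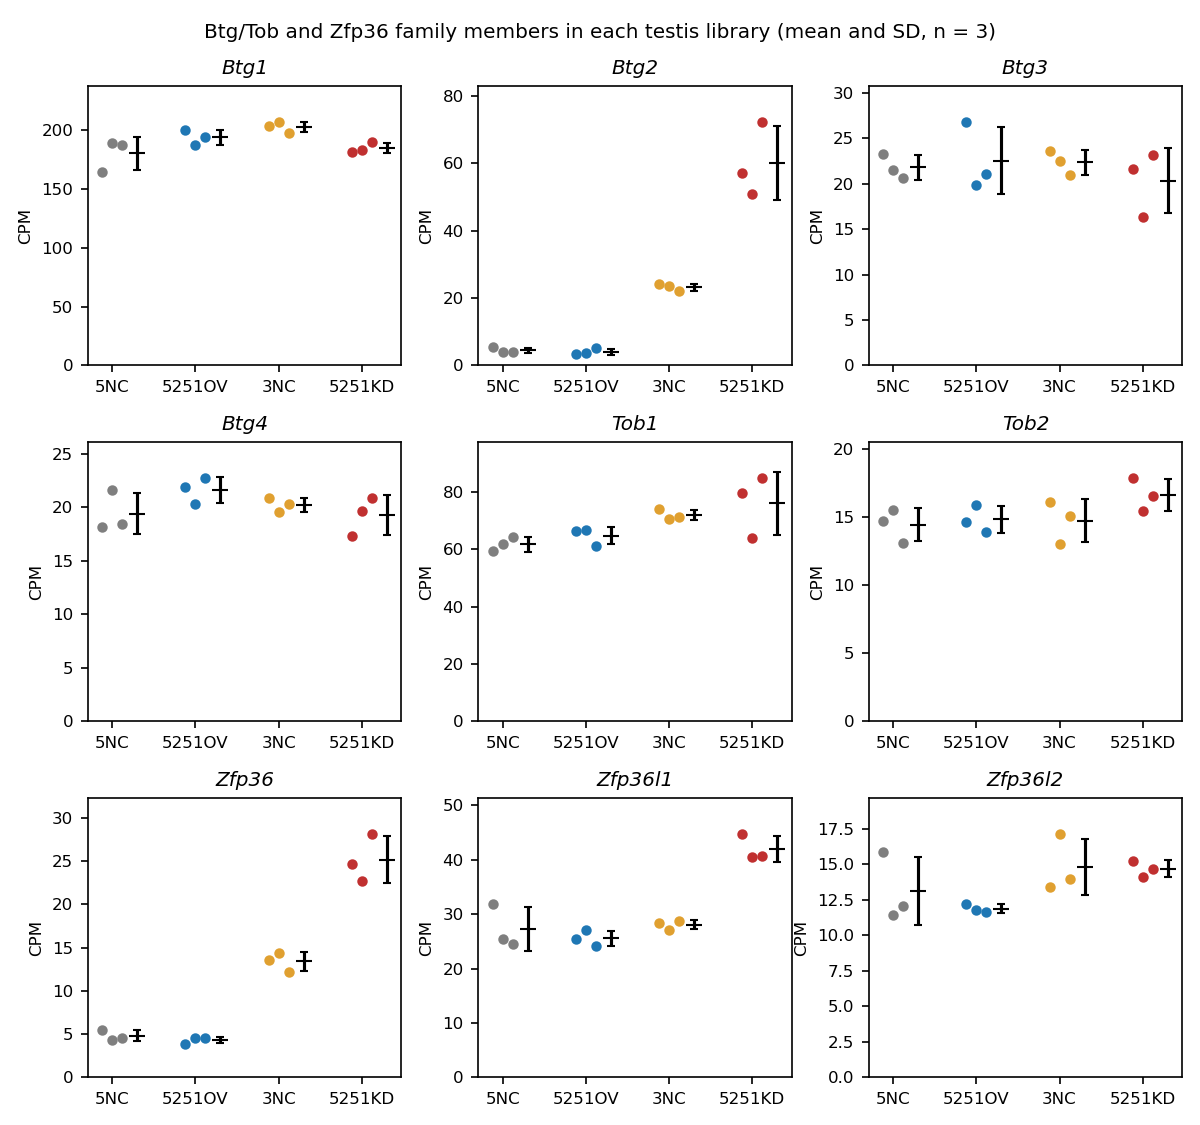
CPM of each member (vertical axes, each from 0) in the 12 testis libraries, by group. Points are libraries and bars are the mean and SD of 3. Btg2 and Zfp36 step up from the 6 libraries of F0_5NC and F0_5251OV to F0_3NC and again to F0_5251KD, Zfp36l1 is raised in F0_5251KD alone, and the other 6 genes lie near 1 level.

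Btg2 encodes an antiproliferative protein that is also known as a p53 target and as an activator of deadenylation. On the CPM scale it stood at 56.94, 50.89 and 72.04 in the F0_5251KD libraries. It stood at 24.03, 23.47 and 22.06 CPM in F0_3NC. The 5.39, 4.03 and 3.90 CPM of F0_5NC and the 3.32, 3.72 and 5.04 CPM of F0_5251OV overlapped, and no other pair of groups did.

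The mean of Btg2 was 59.96 ± 10.89 CPM in F0_5251KD, 23.19 ± 1.01 in F0_3NC, 4.44 ± 0.83 in F0_5NC and 4.03 ± 0.90 in F0_5251OV, each with the SD over n = 3 libraries. The lowest library of Btg2 rested on 53 estimated counts and the highest on 1128. In F0_5251KD vs F0_3NC its fitted log2 fold change was 1.37 (SE 0.15), which is 2.59-fold with a 95% interval of 2.06 to 3.25. Between the controls, F0_3NC vs F0_5NC, it was 2.38 (SE 0.18), or 5.20-fold with an interval of 3.997 to 6.77. The step between the 2 control groups was thus the larger of these differences, and the comparisons share the F0_3NC libraries.

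Zfp36 encodes tristetraprolin, which is best known for restraining the mRNAs of inflammatory cytokines. It stood at 24.66, 22.76 and 28.10 CPM in F0_5251KD and at 13.60, 14.41 and 12.22 CPM in F0_3NC. It stood at 5.51, 4.36 and 4.61 CPM in F0_5NC and at 3.89, 4.50 and 4.52 CPM in F0_5251OV. The order of the groups was that of Btg2, and again only F0_5NC and F0_5251OV overlapped.

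The mean of Zfp36 was 25.17 ± 2.71 CPM in F0_5251KD, 13.41 ± 1.11 in F0_3NC, 4.83 ± 0.61 in F0_5NC and 4.30 ± 0.36 in F0_5251OV, as the SD over 3 libraries. In F0_5251KD vs F0_3NC its log2 fold change was 0.91 (SE 0.12), or 1.88-fold with a 95% interval of 1.56 to 2.25. Between the controls it was 1.47 (SE 0.13), or 2.77-fold with an interval of 2.27 to 3.39. Each of these log2 differences was smaller for Zfp36 than for Btg2.

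**Figure D2:**
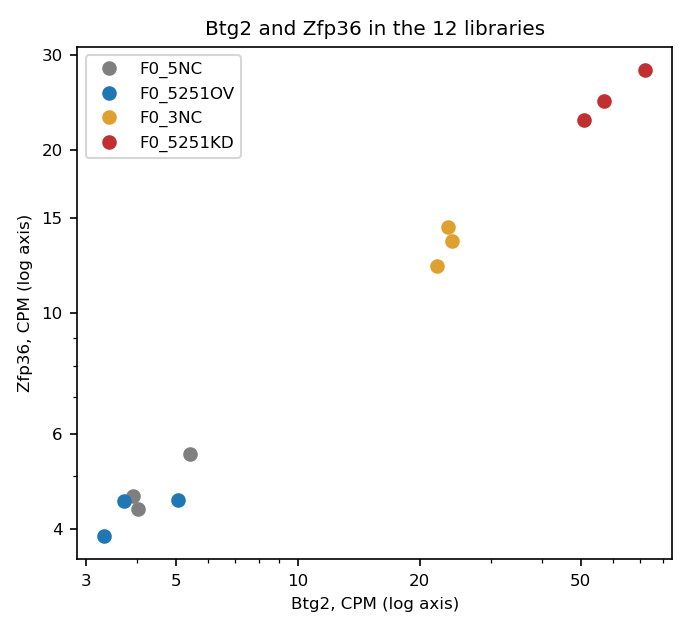
Zfp36 against Btg2, both in CPM on log axes, with 1 point per library coloured by group. The libraries fall in 3 separate clusters, F0_5NC with F0_5251OV at the lower left, F0_3NC in the middle and F0_5251KD at the upper right.

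Of all genes tested, Zfp36 was the one most like Btg2 over the 12 libraries, and Btg2 the one most like Zfp36 (Pearson r of log2 CPM 0.9975 across libraries). Since the libraries fall in clusters by group, this r mainly records the order of the groups. After the group means were removed, r between them was 0.83. The next genes in likeness to Btg2 were Egr1 (0.9862), Dusp1 (0.986), Trib1 (0.9833) and Junb (0.9815). For Zfp36 they were Dusp1 (0.9878), Egr1 (0.9875), Trib1 (0.9826) and Fos (0.9825). Without the group means, r fell to between 0.44 (Egr1) and 0.70 (Junb) for Btg2 and between 0.56 (Dusp1) and 0.69 (Fos) for Zfp36. These values describe libraries that share groups and depth, and no test was made.

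Zfp36l1, a relative of Zfp36 with roles in development and in the cell cycle, had a different pattern. It stood at 44.67, 40.52 and 40.68 CPM in F0_5251KD, against 28.42, 27.12 and 28.80 in F0_3NC. Its 31.88, 25.50 and 24.50 CPM in F0_5NC and 25.45, 27.02 and 24.23 in F0_5251OV overlapped each other, and those of F0_5NC overlapped F0_3NC as well. It was therefore higher in F0_5251KD, with no step between the 2 controls.

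The mean of Zfp36l1 was 41.96 ± 2.35 CPM in F0_5251KD and 28.11 ± 0.88 in F0_3NC (SD over 3 libraries). The fitted log2 difference was 0.58 (SE 0.10), or 1.49-fold with a 95% interval of 1.28 to 1.74. Its log2 fold change in F0_3NC vs F0_5NC was 0.04 (SE 0.10), with an interval from -0.18 to 0.27. Over the 12 libraries r with Btg2 was 0.82, and 0.27 after the group means were removed.

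Zfp36l2, the third relative, which is known from oocyte and blood stem cell biology, ran from 14.07 to 15.25 CPM in F0_5251KD and from 13.40 to 17.09 in F0_3NC. It ran from 11.43 to 15.88 CPM in F0_5NC and from 11.63 to 12.22 in F0_5251OV. Its groups overlapped in each of the 3 comparisons, and its log2 fold change in F0_5251KD vs F0_3NC was -0.01 (95% interval -0.30 to 0.27).

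Btg1 stood between 164.3 and 206.6 CPM in all libraries. Its F0_5251KD values of 181.5, 183.0 and 189.8 CPM lay below the 203.4, 206.6 and 197.7 of F0_3NC. The log2 fold change was -0.13 (SE 0.07), with a 95% interval from -0.28 to 0.02. In F0_3NC vs F0_5NC the log2 fold change of Btg1 was 0.17 (SE 0.07), with an interval of 0.02 to 0.32. Its direction in F0_5251KD vs F0_3NC was thus opposite to that of Btg2, with which it shares the Btg domain, and its size was small.

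Tob1, an antiproliferative protein that tethers CCR4-NOT to poly(A)-binding protein, stood at 79.56, 63.80 and 84.69 CPM in F0_5251KD and at 73.91, 70.67 and 71.28 in F0_3NC, which overlap. The 59.27, 61.71 and 64.41 CPM of F0_5NC lay below every F0_3NC library. The log2 fold change of Tob1 in F0_3NC vs F0_5NC was 0.22 (SE 0.09), with a 95% interval of 0.02 to 0.42. Tob2, its close relative, ran from 13.01 to 17.86 CPM in all libraries, with overlap in every comparison.

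Btg3, which binds the deadenylase as well, ran from 16.34 to 26.76 CPM, and the F0_5251OV libraries alone spread from 19.84 to 26.76. Btg4, a germ cell and oocyte member of the family needed for the clearance of maternal mRNA, ran from 17.28 to 22.68 CPM. Neither separated any pair of compared groups. Their log2 fold changes in F0_5251KD vs F0_3NC were -0.14 (SE 0.14) and -0.07 (SE 0.11).

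**Figure D3:**
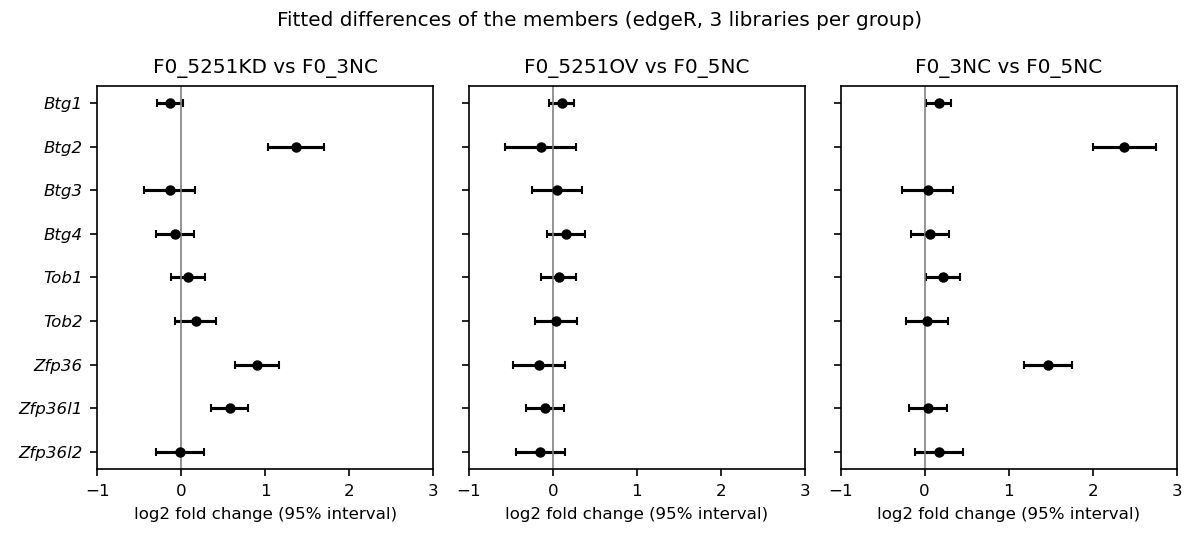
Fitted log2 fold changes of the 9 members (horizontal axes) with 95% intervals, in 3 comparisons of 3 libraries each. The points of Btg2 (1.37 and 2.38) and Zfp36 (0.91 and 1.47) lie farthest to the right in F0_5251KD vs F0_3NC and in F0_3NC vs F0_5NC, the comparisons by which the families were chosen, and the points of F0_5251OV vs F0_5NC run from -0.17 to 0.16.

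Whether knockdown of lncRNA5251 altered gene expression was asked in F0_5251KD vs F0_3NC. Of the 9 members, 2 were called at an adjusted p under 0.05 in the edgeR quasi-likelihood test, Btg2 and Zfp36, where 0.0245% of all genes tested were called (4 of 16296). Since this contrast was in view when the members were chosen, nothing is read from that count. The count depended on single libraries: no gene at all was called when replicate 1 or 3 of F0_3NC or replicate 3 of F0_5251KD was left out, and 1 gene, Btg2, when F0_5251KD replicate 1 was. The fitted differences moved less, from 1.21 to 1.47 (log2) for Btg2 and from 0.82 to 0.97 for Zfp36 when a library was left out. By CPM ranges, 3 members lay wholly higher in F0_5251KD (5.52% of all genes did) and 1, Btg1, wholly lower (6.28% of all genes did).

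In F0_3NC vs F0_5NC, which compares the controls of the 2 vectors, the same 2 members, Btg2 and Zfp36, were called, where 0.331% of all genes tested were (54 of 16296, 45 of them higher). This contrast was in view as well. The count of called genes dropped to 35 without F0_3NC replicate 2 and to 30 without F0_5NC replicate 3. By CPM ranges, 4 members lay wholly higher in F0_3NC (Btg1, Btg2, Tob1 and Zfp36), where 9.59% of all genes did.

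Overexpression of lncRNA5251 was compared in F0_5251OV vs F0_5NC, the comparison that did not enter the choice of members. None of the 9 was called (adjusted p from 0.652 to 0.935 in edgeR's quasi-likelihood test with Benjamini-Hochberg adjustment), where 0% of all genes tested were. Over all genes, 1429 had an unadjusted p under 0.05 and DESeq2 called 30, with no member among them. The CPM ranges of all 9 members overlapped, while 13.9% of all genes did not overlap.

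The log2 differences of the members in F0_5251OV vs F0_5NC ran from -0.17 (Zfp36, SE 0.14) to 0.16 (Btg4, SE 0.10). For Btg2 the value was -0.15 (SE 0.20), which leaves a fold between 0.67 and 1.21 within the 95% interval. For Zfp36 the interval was 0.72- to 1.10-fold, and for Zfp36l1 it was 0.80- to 1.10-fold. Smaller differences within these intervals are left undecided by 3 libraries per group.

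The make-up of each family was followed as shares of its summed RPKM. Btg2 made up 15.81% ± 1.32 of the Btg/Tob sum in F0_5251KD and 6.53% ± 0.15 in F0_3NC, but 1.48% ± 0.33 in F0_5NC and 1.25% ± 0.31 in F0_5251OV, again with the SD over 3 libraries. Btg1 and Tob1 together remained the bulk of that family in all groups, at 29.8% and 27.5% in F0_5251KD and 36.4% and 27.5% in F0_5251OV. The Btg/Tob sum was 128.2 ± 13.2 RPKM in F0_5251KD, 119.4 ± 3.69 in F0_3NC, 103.8 ± 1.53 in F0_5NC and 107.8 ± 6.72 in F0_5251OV. The ranges of these sums overlapped between F0_5251KD, F0_3NC and F0_5251OV, and between F0_5NC and F0_5251OV.

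The Zfp36 family was more rearranged. Zfp36 made up 44.7% ± 2.98 of its sum in F0_5251KD, 36.6% ± 1.81 in F0_3NC, 18.1% ± 0.68 in F0_5NC and 17.5% ± 1.39 in F0_5251OV. Zfp36l1 was the leading member in every library of the 2 LV5 groups (57.4% to 60.4%) and of F0_3NC (40.7% to 46.6%). It shared that place with Zfp36 in F0_5251KD (42.8% ± 2.56). The family sum was 34.52 ± 2.15 RPKM in F0_5251KD, 22.29 ± 1.19 in F0_3NC, 16.76 ± 3.40 in F0_5NC and 14.87 ± 0.65 in F0_5251OV. In whole testis, more cells of a type that holds these mRNAs and more mRNA per cell cannot be told apart.

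**Figure D4:**
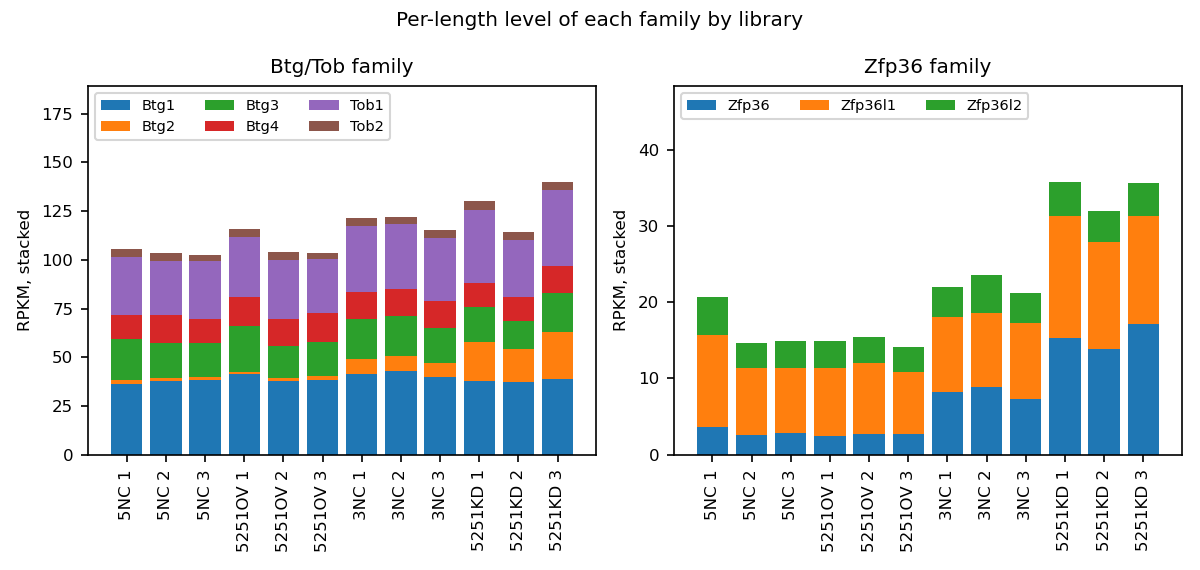
Stacked RPKM of the 6 Btg/Tob genes (left) and the 3 Zfp36 genes (right) in each library (group and replicate on the horizontal axis). The Btg2 and Zfp36 segments widen from the F0_5NC and F0_5251OV libraries to F0_3NC and F0_5251KD, while the Btg1, Tob1, Btg3 and Btg4 segments keep similar heights.

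The machinery on which these regulators act was read from lists of 92 genes, of which 89 were tested. None was called in F0_5251KD vs F0_3NC or in F0_5251OV vs F0_5NC. In these comparisons 4 and 7 of the 89 had an unadjusted p under 0.05, beside 773 and 1429 of all 16296 genes tested. DESeq2 called 1 in each, Dusp1 and Mapkapk2 respectively. The controls differed in 1, Dusp1 (log2 fold change 0.93, SE 0.13), the phosphatase that switches off the p38 and ERK kinases by which Zfp36 is controlled. The lists were chosen with earlier results of these data known, so no p-value is given. The medians of the 89 genes were -0.03, 0.04 and 0.03 on the log2 scale in the 3 comparisons, beside -0.0045, -0.002 and 0.0005 over all genes tested.

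Of the 12 genes of the CCR4-NOT complex, the direct partner of both families, none was called in any of the 3 comparisons. In F0_5251KD vs F0_3NC they ran from -0.24 (Cnot6l, a catalytic subunit) to 0.29 (Tnks1bp1) with a median of -0.04. None of the 16 other deadenylases and poly(A)-binding proteins was called either, with a range in that comparison from -0.17 (Paip1) to 0.12 (Toe1). Of 19 tested decapping and 5′ decay genes (range -0.23 for Ddx6 to 0.34 for Dcps) and 16 exosome genes (range -0.19 for Exosc8 to 0.22 for Exosc6), none was called.

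Of the other mRNA-binding regulators, 0 of 14 tested were called in each of the 3 comparisons. In F0_5251KD vs F0_3NC their extremes were Nanos1 (-0.63) and Nanos3 (0.60, SE 0.52), translational repressors of germ cells at low levels. The relative Zfp36l3 was in the table but did not pass the filter on low counts.

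**Figure D5:**
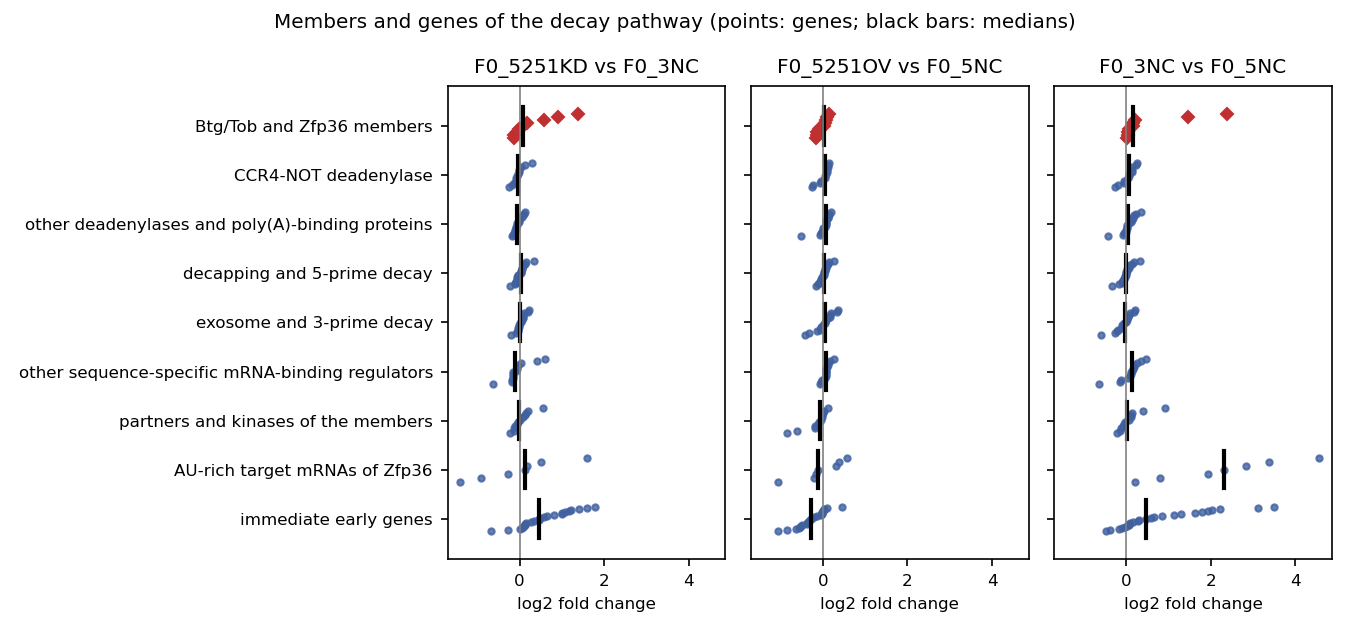
Log2 fold changes (horizontal axes, the same in all panels) of the 9 members (diamonds) and of the tested genes of 8 lists (points), with black bars at the medians, in 3 comparisons. The medians of the decay machinery lists lie close to 0. Single genes of these lists reach -0.84 (Hoxb9, F0_5251OV vs F0_5NC) and 0.93 (Dusp1, F0_3NC vs F0_5NC). The early response genes lie mostly to the right in F0_5251KD vs F0_3NC (23 of 25 higher, beside 49.1% of all genes tested). They also do in F0_3NC vs F0_5NC (20 of 25 higher, beside 50.1% of all genes tested).

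Known AU-rich target mRNAs of Zfp36 were sparse in the testis, with 8 of 16 under 1 CPM in every library and 7 tested. In F0_3NC vs F0_5NC, where Zfp36 was higher, all 7 had positive log2 fold changes and 4 were called (Ccl2, Myc, Ier3 and Fos), with a median of 2.32. In F0_5251KD vs F0_3NC, where Zfp36 was higher again, 4 of the 7 were above 0 and 1 was called, Fos (1.58, SE 0.23). The range ran from -1.40 (Ccl2) to that value. The Fos call was lost without F0_3NC replicate 1 or 3 or without F0_5251KD replicate 3. Fos is also in the list of immediate early genes below, so its calls are counted in both lists. The list was chosen with earlier results of these data known, so no p-value is given. In F0_5251OV vs F0_5NC none was called, and the values ran from -1.06 (Fos) to 0.58 (Ccl2). Ccl2 and the other targets not above 0 in F0_5251KD vs F0_3NC thus changed direction between the first pair of these comparisons, which share the F0_3NC libraries.

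The immediate early genes, a class to which Btg2 and Zfp36 are often counted, were read as a list of 25 that does not hold them. This list too was chosen with earlier results of these data known, so its counts and medians are descriptions. In F0_5251KD vs F0_3NC 2 of 25 were called, both higher (Fos and Egr1), where 4 of all 16296 genes tested were. The median over the list was 0.47 on the log2 scale, beside -0.0045 over all genes tested. Of the same 25 genes 6 were called in F0_3NC vs F0_5NC, all higher (Egr1, Egr2, Nr4a3, Maff, Fos and Junb). Of all genes tested, 54 were called there. The list median was 0.48, beside 0.0005 over all genes tested. In F0_5251OV vs F0_5NC the list median was -0.28, beside -0.002 over all genes tested, and none of the 25 was called. Their summed CPM was 807.1 to 866.2 in F0_5251KD, 558.9 to 672.4 in F0_3NC, 518.4 to 548.7 in F0_5NC and 448.1 to 582.1 in F0_5251OV. Only F0_5251KD lay clear of all other groups, since the F0_5251OV range overlapped those of both F0_5NC and F0_3NC.

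The summed markers of some cell type lists did not overlap between F0_5251KD, where Btg2, Zfp36 and Zfp36l1 were highest, and F0_3NC. The 6 endothelial markers summed to 39.42 to 43.46 CPM in F0_5251KD and to 32.78 to 36.40 in F0_3NC. The 5 red blood cell markers summed to 68.85 to 106.7 and 53.88 to 62.49 CPM, and the neutrophil markers, 4 of 5 of them under 1 CPM, to 0.83 to 0.95 and 0.26 to 0.61. In the other direction, the 5 spermatocyte markers summed to 411.3 to 460.3 CPM in F0_5251KD and to 464.1 to 570.3 in F0_3NC, and the epididymis markers were lower as given above. No gene of these lists was called in this comparison, and their part in the values of the 3 genes was not tested.

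Between the 2 controls, where Btg2 and Zfp36 also differed, the epididymis sum lay wholly lower in F0_3NC. The adipocyte marker Plin1 was called lower there (log2 fold change -1.46, SE 0.25). The sums of the other marker lists overlapped. In F0_5251OV vs F0_5NC the Sertoli cell markers summed to 627.2 to 784.5 and 814.6 to 1214 CPM and the peritubular smooth muscle markers to 61.74 to 73.16 and 83.58 to 100.3 CPM, without overlap. The part of these cells in the members' values was not tested.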

How the data were processed

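The deposited table held, per the labels on mm10, estimated counts per gene and RPKM that the authors made with SOAPaligner 2.20 from poly(A)-selected, random-primed HiSeq reads. In the deposited estimated counts 12% of values were not whole (tolerance 1e-06), and they were rounded. Strand marking is not mentioned in the methods, and sense and antisense reads of a locus may be counted together. The authors' fold changes, p-values and group means were not used, nor were 18 columns of per-sample values of other samples. The members and gene lists were chosen with earlier results of these data known. All 9 members are named; of the lists, called genes and the highest and lowest per comparison; and the 5 genes most like Btg2 and Zfp36.

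All 12 libraries entered 1 fit of 4 groups (edgeR 4.0.16, TMM factors 0.970 to 1.078, filterByExpr, 16296 genes, 8 residual degrees of freedom, quasi-likelihood test, two-sided, Benjamini-Hochberg, threshold 0.05), tested on simulated data. CPM are TMM-scaled. Correlations used log2 CPM with a prior count of 2. Alternatives were DESeq2 1.42.0, limma 3.58.1 on log2(RPKM + 1) and log2(RPKM + 0.1), upper-quartile scaling, 2 other filters, a replicate block, fits of 2 groups, and leaving out each library. The study's own test, DEGseq, was not used.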

Additional observations from a re-analysis of the deposited data

How the results depend on the processing

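The log2 fold changes of Btg2, Zfp36 and Zfp36l1 in F0_5251KD vs F0_3NC ran from 1.21 to 1.47, 0.82 to 0.97 and 0.53 to 0.60 over the 14 alternatives. These values were in view when the members were chosen and lend no support to that choice. The count of called genes there was 4 as reported, 20 with DESeq2 (Btg2, Zfp36 and Zfp36l1 among them), 2 with limma on log2(RPKM + 1), 0 with limma on log2(RPKM + 0.1), and 0 to 4 with a library left out. In F0_5251OV vs F0_5NC it was 0 as reported, 3 without the filter, 3 with the 2 groups alone, 30 with DESeq2 and 0 to 1 with a library left out (1 without F0_5NC replicate 2 or 3), never a member. In F0_3NC vs F0_5NC it was 54 as reported, 138 with DESeq2 and 30 to 54 with a library left out. With limma on log2(RPKM + 1) the log2 fold changes of Btg2 and Zfp36 were 1.80 and 1.20. DESeq2 called 1 decay pathway gene in F0_5251KD vs F0_3NC and 1 in F0_5251OV vs F0_5NC. The cause of these differences was not tested.

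With a replicate block, 2 genes were called in F0_5251KD vs F0_3NC, Btg2 the only member, as it was with limma on log2(RPKM + 1) and with the 2 groups fitted alone. Same-numbered libraries did not deviate together (correlations -0.17 to 0.07), so the numbers are not read as a pairing.

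Values near 0 changed sign in F0_5251OV vs F0_5NC. Tob2 went from 0.04 to -0.0069 and -0.0081 with limma (pseudocounts 1 and 0.1). With a library left out, Tob2 ran from -0.0207 (without F0_5NC replicate 3) to 0.091, Btg2 from -0.34 to 0.0189, Zfp36l1 from -0.16 to 0.0306 and Zfp36l2 from -0.24 to 0.0112 (these 3 positive without F0_5NC replicate 1), and Btg3 from -0.0934 (without F0_5251OV replicate 1) to 0.13. Tob2 was also below 0 without F0_5251OV replicate 2. None of these was called under any alternative (adjusted p 0.547 to 0.998 for these 5 genes). With 3 libraries a group and as few as 53 counts, Btg2 and Zfp36 are least precise in the 2 LV5 groups.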
